A study of Mus musculus with 30 samples.

Results

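GABA-A receptor subunit genes were followed across RNA-seq libraries of fluorescence-sorted interneurons from the medial prefrontal cortex (mPFC) of mice. The 7 genes were chosen by name, as the rows of the expression table with the symbols Gabra2, Gabra3, Gabra4, Gabra5, Gabrb1, Gabrb2 and Gabrd, out of 23993 genes in all. The table holds 24 libraries: control Sst females (7), control Sst males (7), Sst males exposed to 14 days of chronic unpredictable stress (CUS, 3) and control Pvalb males (7). Values are FPKM, fragment counts divided by transcript length and by the size of the library, so levels of different genes can be set side by side.

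All animals, 6 to 12 weeks old and of C57BL/6 background according to the labels, were heterozygous reporter mice. A Sst-Cre or a Pvalb-Cre driver had been crossed with the Ai9 (RCL-tdTomato) line, so red fluorescence marks every cell that ever switched on the driver, and the same reporter is carried by controls and stressed animals. Papain-digested tissue was sorted for tdTomato. The labels do not say whether the libraries of a group came from separate animals, so a p-value measures only the spread between these samples. The labels list 6 further samples (1 Pvalb female control, 3 Sst females and 2 Pvalb females after CUS) that are not analysed here.

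GABA-A receptors are chloride channels built from 5 subunits around a central pore and carry most fast inhibition in the cortex. Alpha and beta subunits form the GABA binding site between them, the alpha subunit sets the response to benzodiazepines, and a gamma subunit is usually needed for clustering at synapses, whereas the delta subunit takes part in receptors outside the synapse that give tonic inhibition. Alpha5 receptors are also largely extrasynaptic, and astrocytes and oligodendrocyte precursors carry GABA-A receptors as well as neurons do.

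Of the 7 genes, 3 are neighbours. Positions are those of RefSeq on GRCm38.p6, the mm10 build. Gabra2 (chr5:70958392-71095849, minus strand), Gabra4 (chr5:71569734-71658308, minus strand) and Gabrb1 (chr5:71657921-72149572, plus strand) lie within 1191 kb of chromosome 5. Gabra4 and Gabrb1 start head to head and share 388 bases at their 5′ ends, so reads from the shared stretch cannot be assigned to 1 of these genes without strand. Gabra3 is on chrX:72432676-72656919, Gabra5 on chr7:57407669-57591016, Gabrb2 on chr11:42419515-42632591 and Gabrd on chr4:155384979-155398098.

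The start-site windows of the chromosome 5 genes are shown because these 3 genes carried most of the subunit signal and the largest difference, and that of Gabra3 because it stood apart from them. Each window covers 250 bases before and 50 after a RefSeq start, 5′ to 3′ on the gene's strand. Capitals mark the GC box GGGCGG and the TATA motif TATAAA, searched on both strands. The windows are Gabra2 chr5:71095800-71096099 (minus), Gabra4 chr5:71658259-71658558 (minus), Gabrb1 chr5:71657671-71657970 (plus) and Gabra3 chrX:72656870-72657169 (minus).
Gabra2: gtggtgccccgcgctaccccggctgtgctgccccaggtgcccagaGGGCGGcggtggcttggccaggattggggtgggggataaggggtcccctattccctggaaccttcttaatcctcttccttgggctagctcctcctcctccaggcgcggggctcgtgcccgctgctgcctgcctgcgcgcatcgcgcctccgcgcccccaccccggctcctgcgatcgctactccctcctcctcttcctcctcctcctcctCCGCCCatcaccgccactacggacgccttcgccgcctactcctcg
Gabra4: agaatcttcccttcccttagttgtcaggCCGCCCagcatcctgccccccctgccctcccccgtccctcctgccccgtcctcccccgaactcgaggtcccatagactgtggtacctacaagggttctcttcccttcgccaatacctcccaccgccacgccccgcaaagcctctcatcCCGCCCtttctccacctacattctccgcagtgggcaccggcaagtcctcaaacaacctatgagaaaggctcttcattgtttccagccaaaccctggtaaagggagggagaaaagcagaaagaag
Gabrb1: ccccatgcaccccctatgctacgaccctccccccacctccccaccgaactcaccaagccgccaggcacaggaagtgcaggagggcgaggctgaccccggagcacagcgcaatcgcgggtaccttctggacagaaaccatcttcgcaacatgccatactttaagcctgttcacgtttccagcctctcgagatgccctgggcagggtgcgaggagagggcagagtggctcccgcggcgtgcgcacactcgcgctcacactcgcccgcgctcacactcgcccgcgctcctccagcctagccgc
Gabra3: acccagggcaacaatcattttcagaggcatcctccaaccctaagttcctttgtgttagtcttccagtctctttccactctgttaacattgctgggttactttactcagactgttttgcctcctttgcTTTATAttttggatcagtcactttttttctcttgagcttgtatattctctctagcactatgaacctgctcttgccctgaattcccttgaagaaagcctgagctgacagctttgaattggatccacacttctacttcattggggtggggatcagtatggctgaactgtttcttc
The Gabra2 and Gabrb1 windows each held 25 CpG dinucleotides and the Gabra4 window 12, while the Gabra3 window held 0; the median over 32851 windows of the RefSeq table was 7. GC boxes were found in the windows of Gabra2 and Gabra4 (2 each) and not in that of Gabrb1, against 35.7% of all windows. TATAAA was present in the Gabra3 window and in 13.6% of all windows. None of the 4 windows held CACGTG, TGACGTCA, GCGTGGGCG or AGGTCA on either strand, which occur in 7.15%, 1.79%, 0.612% and 16.3% of all windows. The table gave 10 windows for 6 of the 7 genes, all but Gabrd. Of those not shown, the Gabra5 window held 13 CpG and neither motif. The Gabrb2 windows held 11, 9 and 9 CpG, the first with 1 GC box and 1 TATAAA. A second Gabrb1 window held 9 CpG and neither motif, and a second Gabra3 window 0 CpG and 1 TATAAA. In CpG number the Gabra4 window thus lay between those of Gabra5 and Gabrb2, so the chromosome 5 genes did not stand apart from all other subunits.

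Before any comparison, the libraries were checked against their labels. SST0-M hardly differed from SST1-M, nor PV0-M from PV2-M: across genes, their log2 ratios had SDs of 0.0212 and 0.0170, where the next closest pairs of their groups had 0.267 and 0.225. Each such pair was averaged and counted as 1 sample, which left 22 samples. The title of a male Sst library is either a running number, as in the female and Pvalb libraries, or a longer number like a date (SS04031R, SST040241L and SST04241LL). All 3 CUS libraries have dated titles, and no female or Pvalb library does. FPKM summed to 681118 to 1311420 in the 6 dated libraries and to 276023 to 432075 in the 18 numbered ones. PV1-M, PV4-M and PV5-M, labelled male, had 300.2 to 333 FPKM of Xist, the X-inactivation RNA of female cells, while the other libraries labelled male had 0 to 6.64. Among the females, SST1-F, SST3-F and SST4-F were close to each other, as were SST2-F, SST5-F and SST6-F (SD of the log2 ratio 0.171 to 0.221 within these sets, 0.364 to 0.427 between them), and SST-F stood apart from all 6 (0.591 to 0.651). The Pvalb group had such sets too: PV1-M, PV4-M and PV5-M (0.172 to 0.216), and PV3-M with PV6-M (0.218). Between these Pvalb sets the SD was 0.491 to 0.557, and the mean of PV0-M with PV2-M stood apart from both (0.702 to 0.790). The 3 CUS libraries were close to each other (0.221 to 0.233), as were the dated controls SST040241L and SST04241LL (0.226). The mean of SST0-M with SST1-M stood apart from all other male Sst controls (0.976 to 1.34). Close libraries counted as separate samples in the tests unless stated otherwise, so p-values may be too small.

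The sorted cell type was only weakly visible in the RNA. Over the 22 samples the mean log2(FPKM + 1) was 0.49 to 2.01 for 10 interneuron markers and 1.54 to 3.86 for 10 pan-neuronal markers, against 7.32 to 9.19 for 12 microglia markers, 4.81 to 6.96 for 10 astrocyte markers and 5.10 to 7.34 for 7 oligodendrocyte markers. By mean level, Ctss, the most abundant microglia marker, and Aldoc, the most abundant astrocyte marker, were above Sst, the most abundant interneuron marker, in every library. Slc1a2, a glutamate transporter that astrocytes express strongly, was listed at 0 in every Sst control. Gad1, which makes GABA, was at most 2.05 FPKM. The Sst transcript itself was at 12.5 to 30.5 FPKM in the 6 samples labelled Pvalb, and 12 of the 13 Sst control samples lay below the Pvalb median of 24.9. Pvalb was at 0.89 to 5.07 FPKM in the samples labelled Pvalb and listed at 0 in 8 of 13 Sst controls. In sorted bulk RNA, fewer cells of a type and less RNA per cell cannot be told apart, and the values below are those of the whole sorted sample.

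Gabrb1 was the most abundant of the 7 genes in all 22 samples and Gabra2 the second in all 22. Gabra4 came next in 17. Gabrb1 ranged from 13.2 to 46.1 FPKM with a median of 29.3, Gabra2 from 3.24 to 18.3 with a median of 7.76, and Gabra4 from 0.72 to 6.03 with a median of 2.44. The other 4 had medians of 0.60 (Gabra3), 0.42 (Gabrb2), 0.30 (Gabra5) and 0.21 FPKM (Gabrd), near or below the 0.4 FPKM above which the study called a gene expressed. In single libraries the 7 genes summed to 19.4 to 68.9 FPKM, and the chromosome 5 trio made up 72.2% to 98.6% of that sum (median 94.4%). The lowest share was in PV3-M and the highest in SST4-F. Gabra3, Gabrb2, Gabra5 and Gabrd did not keep the same order in the mean of every group, whereas Gabrb1, Gabra2 and Gabra4 did. The subunits were not tested against each other.

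**Figure D1:**
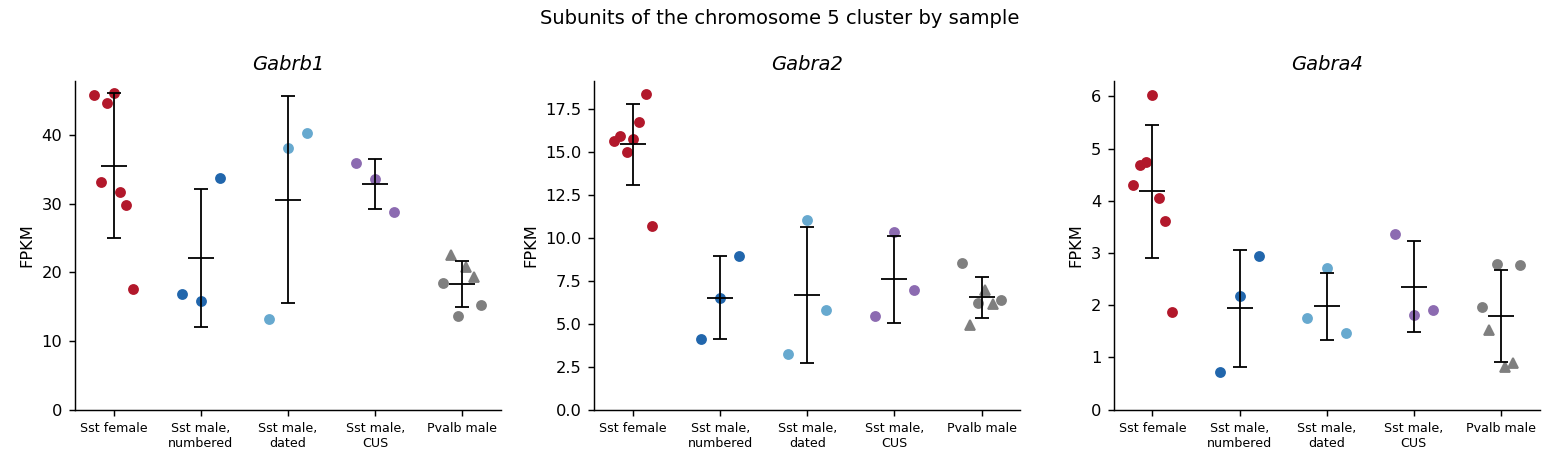
Level in FPKM (vertical axes, linear) of Gabrb1, Gabra2 and Gabra4 in the 22 samples, by group; points are samples, triangles the Pvalb samples labelled male with high Xist, and black marks the mean with SD. Gabra2 in females (10.7 to 18.3 FPKM) lay above every sample of the numbered males and of the Pvalb group.

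The first comparison asked whether subunit levels differed between the sexes in control Sst mice. Gabra2, an alpha subunit of receptors that respond to benzodiazepines, was higher in females. It was at 10.7 FPKM in the lowest female sample, 15.8 in the median and 18.3 in the highest, and at 4.10, 6.51 and 8.93 FPKM in the 3 numbered males. Every female sample was therefore above every numbered male. The log2 fold change was 1.17 (SE 0.22, 95% interval 0.68 to 1.66, limma, adjusted p = 0.0230, n = 7 and 3), and the exact two-sided permutation test gave p = 0.0167, the smallest that 7 samples against 3 allow. Of the 6 subunits tested, Gabra2 alone passed, where 3.41% of all 14443 genes did. Its groups did not overlap, as was the case for 9.73% of all genes.

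The call of Gabra2 was close to the threshold. It was lost when any one of SST1-F to SST6-F or SST3-M was left out (adjusted p 0.0521 to 0.0734) and when the 2 sets of close female libraries were averaged, a fit chosen after the data were seen (log2 fold change 1.06, adjusted p = 0.762). The dated males had 3.24, 5.82 and 11.01 FPKM, so 1 of them, SST040241L, overlapped the female range. Against all 6 male samples the log2 fold change was 1.19 (SE 0.23, adjusted p = 0.0115).

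Gabra4, an alpha subunit often found with delta outside synapses, and Gabrb1 followed with smaller differences. Gabra4 was at 1.86, 4.29 and 6.03 FPKM (lowest, median, highest) in females and at 0.72, 2.17 and 2.94 in the numbered males. In 6 of the 7 female samples Gabra4 was above all 3 males, and SST-F was within their range. The log2 fold change of 0.86 (SE 0.32, adjusted p = 0.140) did not pass, and without SST-F it was 0.99 (adjusted p = 0.0438). Gabrb1, the beta1 subunit, was at 17.6, 33.1 and 46.1 FPKM in females and at 15.8, 16.9 and 33.7 in the numbered males. These groups overlapped, and its log2 fold change of 0.68 (SE 0.31, adjusted p = 0.207) did not pass.

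The 4 low subunits gave less. Gabra5 had 0.90 FPKM as its female median and at most 0.275 in the numbered males, where it was listed at 0 in the mean of SST0-M with SST1-M, and its log2 fold change was 0.68 (SE 0.31, adjusted p = 0.204). It passed the 0.4 FPKM filter only through the females (means 0.956 and 0.166 FPKM). Gabrb2, the beta2 subunit of the commonest synaptic receptor, had medians of 1.12 and 0.31 FPKM with a log2 fold change of 0.52 (SE 0.32, adjusted p = 0.323). It too passed the filter only through the females (means 1.02 and 0.353 FPKM). Gabra3 had medians of 0.67 and 0.50 FPKM but a negative log2 fold change, -0.37 (SE 0.43, adjusted p = 0.611). The mean of SST0-M with SST1-M, at 3.78 FPKM, set that direction: without it the value was 0.19. Gabrd, the delta subunit, was below the filter.

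With all 6 male samples as controls, 3 of the 6 subunits tested were higher in females and 0 lower (11.7% of 14498 genes passed). These were Gabra2, Gabra4 (log2 fold change 0.82, adjusted p = 0.0483) and Gabra5 (0.75, adjusted p = 0.0455). Gabra5 entered this test only through the females (mean 0.956 FPKM), since 0 of the 6 male samples were above 0.4 FPKM (mean 0.11), so its call is no support for a difference of the group of subunits. Females and numbered males share the title kind, and the dated males do not, so in this wider comparison sex and title kind are partly mixed. Between dated and numbered male controls, 0 of 4 subunits tested passed limma's test (0 at an unadjusted p under 0.05), although 4.11% of 14230 genes did. Title kind moves with the summed FPKM given above. Gabrb1 was at 13.2, 38.1 and 40.3 FPKM in the dated males, with SS04031R the lowest of all 22 samples.

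Markers of other cells were read beside these values. Summed over the 12 microglia markers, females had 3659 to 6802 FPKM and numbered males 5817 to 9415. Of the 12, 1 was listed at 0 in every male Sst sample, while all 12 were above 0.4 FPKM in every female sample. The 10 astrocyte markers summed to 871 to 1588 FPKM in females and 828.6 to 2084 in numbered males, and the 10 pan-neuronal markers to 54.7 to 266 and 86.3 to 118. The 6 endothelial markers summed to 73.3 to 148 FPKM in females (median 122) and to 24.9, 41.5 and 136 in numbered males. With the microglia, pan-neuronal or astrocyte mean as a covariate, Gabra2 passed (log2 fold change 1.16, 1.15 and 1.12). The astrocyte fit was chosen after the data were seen, and the endothelial mean was not used as a covariate. SST-F had the lowest Gabra2, Gabra4 and Gabrb1 of the females, the highest Gabra3, Gabra5, Gabrb2 and Gabrd, the highest mean of the pan-neuronal markers (3.86) and the lowest of the astrocyte markers (5.19). These fits cannot separate cell content from sex, and the part of cell content in the sex difference was not tested.

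**Figure D2:**
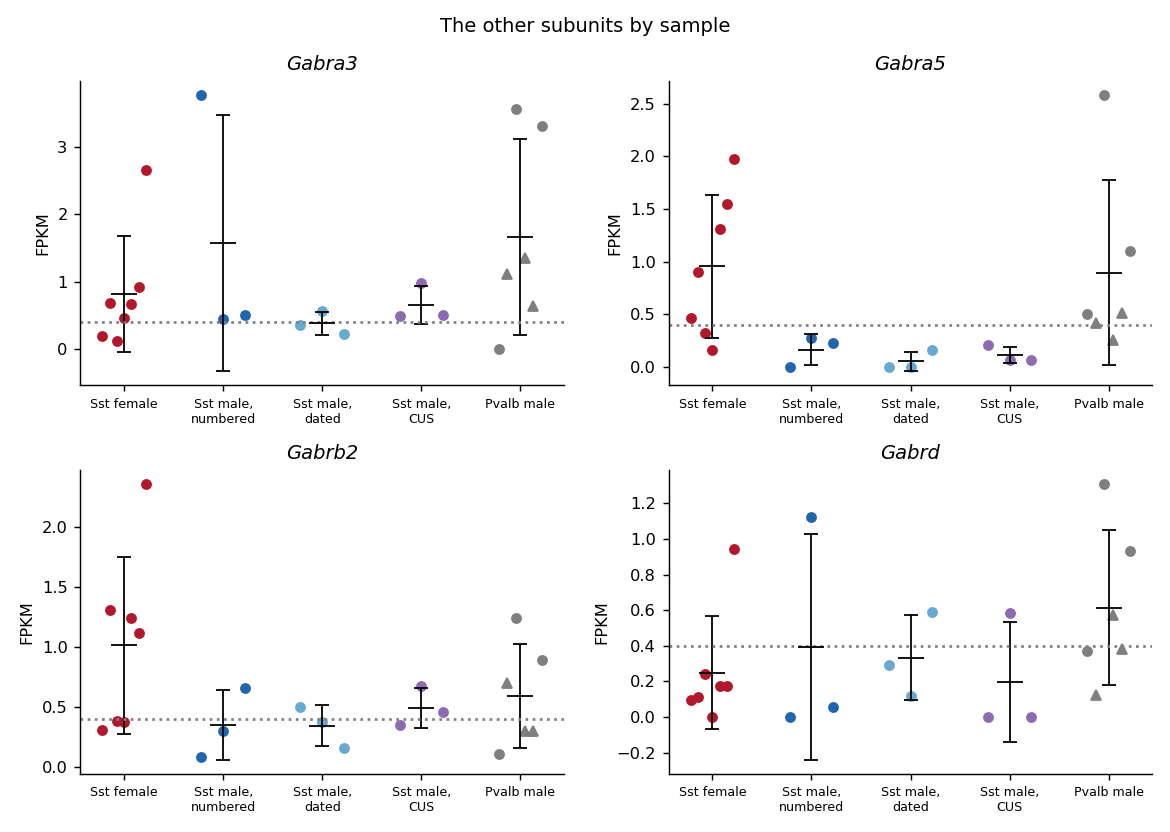
Level in FPKM (vertical axes, linear) of Gabra3, Gabra5, Gabrb2 and Gabrd in the 22 samples, by group, with the mean and SD in black, triangles for Pvalb samples labelled male with high Xist, and a dotted line at 0.4 FPKM. Most samples lie near or below the line, and the high points are single samples such as SST-F, PV3-M and the mean of SST0-M with SST1-M at 3.78 FPKM of Gabra3.

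The second comparison asked whether Sst and Pvalb cells differed. Over all controls (13 Sst and 6 Pvalb samples), 0 of the 7 subunits passed limma's test (1 at an unadjusted p under 0.05), while 7.8% of 14524 genes did. Gabrb1 came closest: the Pvalb samples had 13.6 FPKM (lowest), 18.9 (median) and 22.6 (highest), and the Sst samples 13.2, 33.1 and 46.1. In all, 9 of the 13 Sst samples were above every Pvalb sample, and SS04031R was below them all. The log2 fold change was 0.65 (SE 0.25, 95% interval 0.12 to 1.18, adjusted p = 0.113, exact permutation p = 0.0257), and without SS04031R 0.74 (adjusted p = 0.0464). Gabra2 (0.58, adjusted p = 0.227) and Gabra4 (0.53, adjusted p = 0.233) had positive differences as well, and Gabra3 (-0.45, adjusted p = 0.405), Gabra5 (-0.28, adjusted p = 0.544) and Gabrd (-0.31, adjusted p = 0.322) negative ones. Gabrb2 was at 0.067.

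The comparison was repeated with the Sst samples of each sex. When the 7 female Sst samples alone were set against the Pvalb samples, the chromosome 5 trio was higher in the females: 3 of 7 subunits passed and all 3 were higher, where 25.1% of 14502 genes passed. Gabra2 was at 4.93 to 8.53 FPKM in the Pvalb samples, below the lowest female Sst sample at 10.7, with a log2 fold change of 1.13 (SE 0.14, adjusted p = 0.000257). Gabra4 differed by 0.91 (SE 0.24, adjusted p = 0.0150) and Gabrb1 by 0.87 (SE 0.20, adjusted p = 0.00704). In both, 6 of 7 female samples were above every Pvalb sample and SST-F was not. Close libraries within the female and the Pvalb group were counted as separate samples in this fit, so its p-values may be too small.

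With the 6 male Sst samples alone, 0 of 7 subunits passed (1 at an unadjusted p under 0.05), where 3.41% of 14395 genes did. Gabra2 then had a log2 fold change of -0.063 (95% interval -0.64 to 0.51) and Gabra4 one of 0.092 (-0.53 to 0.71). Gabrb1 had 0.39 (-0.23 to 1.00). Gabra5, at most 0.275 FPKM in the male Sst samples and 0.26 to 2.58 in the Pvalb samples, had the 1 low unadjusted p (log2 fold change -0.68, adjusted p = 0.133), and it passed the filter only through the Pvalb samples (means 0.11 and 0.897 FPKM). Both comparisons use the same Pvalb samples, so they are not independent, and line and sex differ together in the female one. A pass in 1 of them and not in the other does not show that Sst females and males differ. In the direct comparison of females with numbered males neither Gabrb1 nor Gabra4 passed. Against all 6 male samples, where sex and title kind are partly mixed, Gabra4 passed (limma, adjusted p = 0.0483) and Gabrb1 did not (adjusted p = 0.285). Gabra2 passed in both, with a call close to the threshold against the numbered males.

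In the 3 Pvalb samples with high Xist, Gabra2 and Gabra4 were below every female Sst sample, and Gabrb1 was inside the female range. Their Gabra2 was 4.93, 6.13 and 6.99 FPKM, and the other Pvalb samples had 6.20, 6.404 and 8.53. For Gabra4 the high-Xist samples had 0.81, 0.90 and 1.53 FPKM and the others 1.96, 2.78 and 2.80. The samples with high Xist were thus the 3 lowest of the group in Gabra4, and the 3 highest in Gabrb1 (19.3, 20.8 and 22.6 FPKM). In the other subunits they overlapped the rest of the group. The share of all genes that separate these samples was not counted, so the separation is not read as a result about the subunits. The 3 samples with high Xist also form 1 of the close Pvalb sets, so high Xist and that set cannot be told apart. Without the high-Xist samples 0 subunits passed (3 Pvalb samples left). The Pvalb samples also had the highest microglia marker means (8.77 to 9.19), and with that mean as a covariate Gabrb1 turned from 0.65 to -0.57 (adjusted p = 0.784). Of the 12 microglia markers, 1 was listed at 0 in every male Sst sample and above 0.4 FPKM in every Pvalb sample. With the astrocyte mean, a fit chosen after the data were seen, Gabrb1 was at 1.62 (adjusted p = 0.00037). That mean includes Slc1a2, listed at 0 in every Sst control and above 0.4 FPKM in every Pvalb sample. The covariate thus partly follows the line itself, and this fit does not show what astrocyte content would change.

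**Figure D3:**
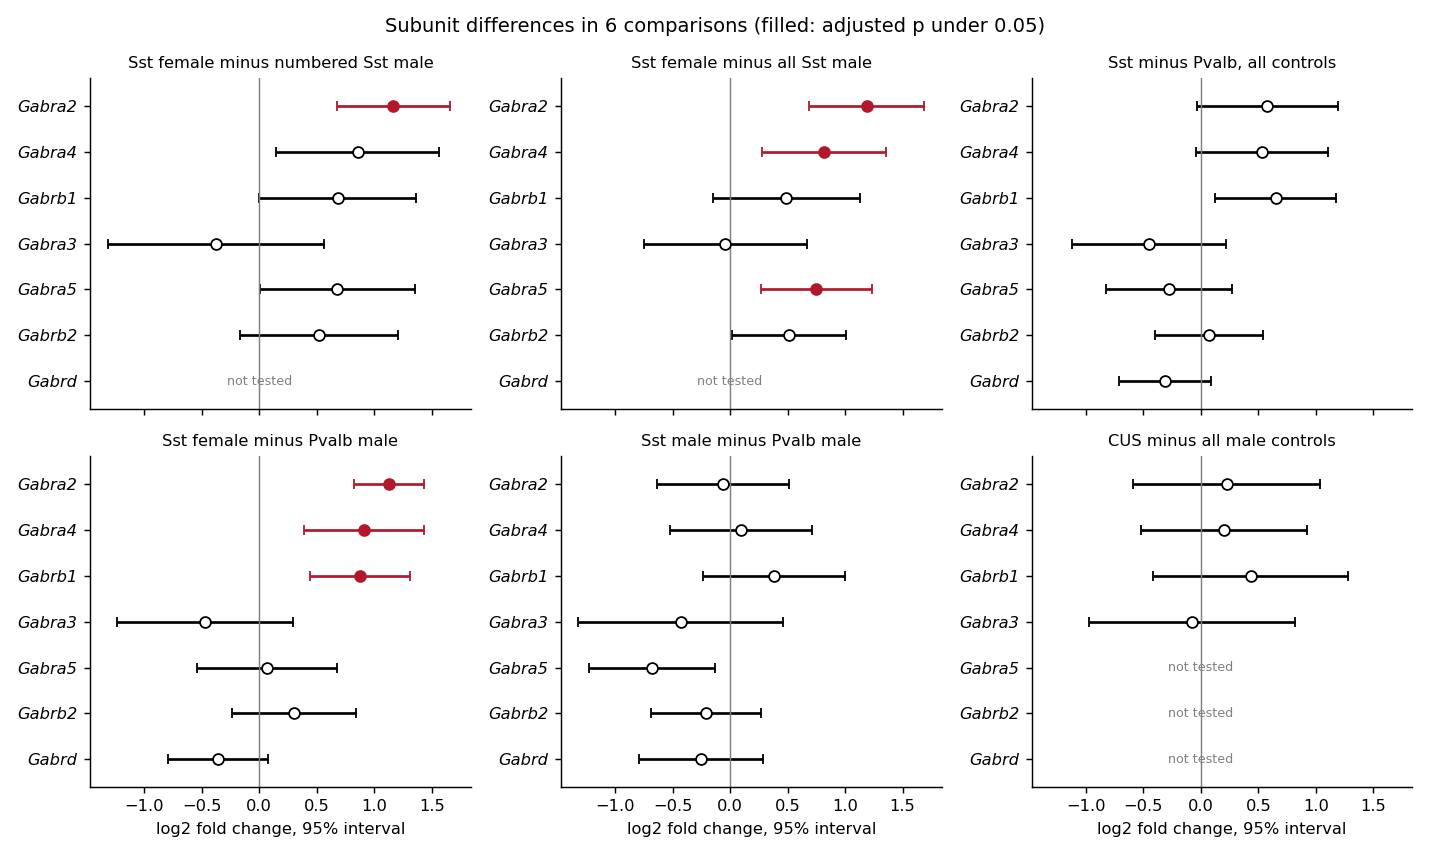
Log2 fold changes of the 7 subunits (horizontal axis, on log2(FPKM + 1)) with 95% intervals in 6 comparisons; filled red points passed an adjusted p of 0.05, and open points did not. The chromosome 5 trio is at 0.87 to 1.13 where female Sst samples meet Pvalb samples and at -0.063 to 0.39 where male Sst samples do.

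A further comparison addressed the effect of CUS in Sst males. No subunit passed: 0 of the 4 tested by limma (0 also at an unadjusted p under 0.05), with 1 of 14319 genes called (0.00698%). Gabrb1 was at 28.8, 33.6 and 35.9 FPKM after CUS and at 13.2 to 40.3 in the 6 controls, so the stressed samples lay inside the control range. The log2 fold change was 0.43 (SE 0.38, 95% interval -0.42 to 1.28). Gabra2 was at 5.44, 6.94 and 10.4 FPKM after CUS and at 3.24 to 11.01 in controls (0.23, interval -0.59 to 1.04).

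Gabra4 was at 1.81, 1.90 and 3.36 FPKM after CUS against 0.72 to 2.94 (0.20, interval -0.52 to 0.92), and Gabra3 at 0.48, 0.50 and 0.98 FPKM against 0.23 to 3.78 (-0.076, interval -0.97 to 0.82). Gabra5, Gabrb2 and Gabrd were below the filter, with CUS means of 0.115, 0.495 and 0.195 FPKM. These tests do not show that levels were alike: the intervals of Gabrb1 and Gabra2 include a log2 fold change of 1, and those of Gabra4 and Gabra3 end at 0.92 and 0.82. Against the 3 dated controls only, which share the title kind of the CUS samples, 0 of 5 subunits passed (0 at an unadjusted p under 0.05; 0.00705% of 14186 genes were called), and Gabrb1 differed by 0.24 (interval -0.70 to 1.19). All 3 CUS samples had higher astrocyte marker means (6.77 to 6.96) than any male control (4.81 to 5.89). Slc1a2, 1 of these 10 markers, was listed at 0 in every Sst control and was above 0.4 FPKM in every CUS sample, so part of this gap came from that 1 gene. The oligodendrocyte means (7.06 to 7.34 against at most 6.80) and endothelial means (4.29 to 4.92 against at most 4.22) were also above every male control, and the microglia means (7.32 to 7.55 against at least 7.61) below. With the astrocyte mean as a covariate, a fit chosen after the data were seen, Gabrb1 was at -0.996 and Gabra2 at -0.43, and neither passed.

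**Figure D4:**
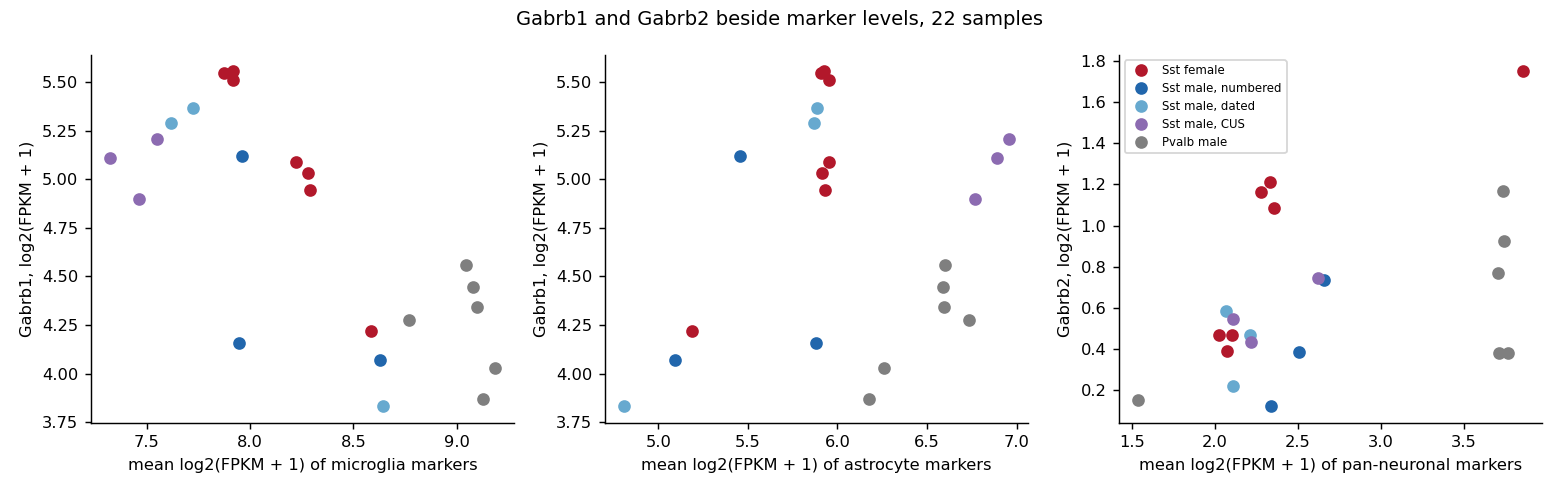
Gabrb1 and Gabrb2 in log2(FPKM + 1) (vertical axes) against the mean log2(FPKM + 1) of the microglia, astrocyte and pan-neuronal markers (horizontal axes) in the 22 samples, coloured by group. Pvalb samples sit at microglia means of 8.77 to 9.19 with Gabrb1 at 13.6 to 22.6 FPKM, and SST-F is highest in both Gabrb2 (2.36 FPKM) and the pan-neuronal mean (3.86).

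Of the other GABA-A subunit genes in the table, 12 were examined, and 5 passed the filter in the comparison of the sexes. None passed the test there (0 by limma, 0 at an unadjusted p under 0.05), and all 5 had a positive log2 fold change, with a median of 0.39, where the median of all genes was 0.054. Gabrg1, the gamma1 subunit and the next gene of the chromosome 5 cluster, was named after its values were seen. It was at 8.81 to 17.5 FPKM in females and 8.19, 7.86 and 16.5 in the numbered males (0.31, adjusted p = 0.461). Its groups overlapped, with 1 of 7 females above all 3 males. Against Pvalb, Gabrg1 had a log2 fold change of 0.69 (adjusted p = 0.0684), and the female Sst samples alone gave 0.78 (adjusted p = 0.0245). Gabra6, Gabrp and Gabrr3 were listed at 0 in every sample.

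The wider GABA pathway list held 36 genes beside the 7: the 12 subunits, 12 genes of receptor anchoring and trafficking, 2 GABA-B receptor subunits, 2 chloride cotransporters and 8 genes of GABA synthesis, transport and breakdown. In the comparison of the sexes 0 of 29 tested passed limma's test (6 at an unadjusted p under 0.05, 4 of them higher in females), where 3.41% of all genes passed and 24.3% had an unadjusted p under 0.05. Gphn, the gephyrin scaffold of inhibitory synapses, differed by 0.39 (adjusted p = 0.244), and Gabbr1 and Gabbr2, the GABA-B receptor pair, by 0.26 (adjusted p = 0.459) and 0.59 (adjusted p = 0.222). The GABA-making Gad1 and Gad2 differed by 0.056 (adjusted p = 0.924) and 0.54 (adjusted p = 0.357), and Slc32a1, the vesicular GABA transporter, by 0.59 (adjusted p = 0.204).

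Between Sst and Pvalb controls 2 of 30 passed, both lower in Sst, which is near the share of all genes (7.8%). Shisa7, a GABA-A receptor partner that speeds channel kinetics, was at 0.20 to 1.05 FPKM in Sst and 0.99 to 2.60 in Pvalb samples (log2 fold change -0.91, SE 0.18, adjusted p = 0.00573). Slc12a5, the neuronal chloride exporter that makes GABA inhibitory, was at 0.04 to 3.90 and 1.05 to 5.47 FPKM (-0.94, SE 0.27, adjusted p = 0.0374). Pan-neuronal marker means had medians of 3.72 in Pvalb samples, 2.28 in female Sst samples, and 2.50 and 2.11 in numbered and dated Sst males. This mean ranged from 1.54 to 3.76 in Pvalb and from 2.03 to 3.86 in female Sst samples, so the groups overlapped. With that mean as a covariate neither gene passed (Shisa7 -0.64, adjusted p = 0.194, and Slc12a5 -0.30, adjusted p = 0.716), nor with the microglia mean (adjusted p = 0.653 and 0.997) or without the high-Xist samples (adjusted p = 0.238 and 0.324). Slc12a5 also lost its call in 11 of 19 fits that left out 1 sample (adjusted p 0.00588 to 0.0967) and with male Sst samples only (adjusted p = 0.0939), whereas Shisa7 kept it in those fits.

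In the CUS comparison 0 of 28 passed (0 at an unadjusted p under 0.05). Between title kinds 1 of 28 passed, near the 4.11% of all genes. This was Plcl1, which binds GABA-A receptors and a phosphatase, higher in the dated males (24.7 ± 1.52 against 8.90 ± 0.61 FPKM, SD, n = 3 and 3, adjusted p = 0.0266 by limma), and its call was lost in 5 of the 6 fits that left out 1 sample (adjusted p up to 0.166).

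For a description of how the subunits varied within groups, each gene's log2(FPKM + 1) was taken as its deviation from the mean of its group, with males split by title kind, over the 22 samples, and genes were compared by Pearson's r. Gabrb1 and Gabra2 deviated together (r = 0.58), less so Gabra2 and Gabra4 (0.38) and Gabra4 and Gabrb1 (0.35). Gabra5 and Gabrb2 had 0.80, Gabra3 and Gabrb2 0.60, and each of these 3 was negative with Gabrb1 (-0.49 to -0.52). Marker means deviated with them: Gabrb1 had r = -0.83 with the microglia and 0.76 with the astrocyte mean, Gabra2 -0.56 and 0.44, and Gabrb2 0.68 with the pan-neuronal mean. All are measured in the same libraries, and the part of cell content in these values was not tested. The 3 genes most like Gabrb1 were Arhgef12, Rgs7 and Peg3 (0.96, 0.95 and 0.94). Those most like Gabra2 were Cpne2, 2900092D14Rik and Fyn (0.83, 0.82 and 0.82), and those most like Gabra4 were 6430550D23Rik, Gm10509 and Cabyr (0.90, 0.85 and 0.85). Gabra3 was closest to Slc6a17, Mturn and Atp6v1g2 (0.92, 0.91 and 0.88), Gabra5 to Alkbh2, Pak3 and Cyb5d2 (0.86, 0.85 and 0.84) and Gabrb2 to Nanos1, Tmem178 and Krt222 (0.89, 0.88 and 0.86). These are the highest values over all expressed genes and carry no test.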

How the data were processed

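RNA of sorted tdTomato-positive cells was sequenced as 75 bp paired ends. The authors deposited FPKM for 23993 genes in 24 libraries. Their Methods name quality trimming, alignment to mm10 with HISAT2 (after a sentence naming mm9 and TopHat2), StringTie, a count-based test, removal of samples more than 2 SD from their group mean and ComBat. The submitters' processing notes name TopHat2, Cufflinks and Cuffdiff with mm10. Whether ComBat was applied to the deposited FPKM is not stated. Counts were not used here, so the test on counts was not repeated. The Methods state a nominal range of reads per sample, but the reads of each library are unknown. As an approximation, the steps between low values gave a relative depth of 0.457 to 2.48, and 12124 to 14255 genes per library were above 0.4 FPKM. An exact 0 can be a failed estimate.

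A gene was tested if its mean in a comparison passed 0.4 FPKM. Tests were made on log2(FPKM + 1) with limma 3.58.1 in R 4.3.3 (trend and robust, two-sided, Benjamini-Hochberg over all genes tested, threshold 0.05). Fold changes on this scale understate the change of low genes. Permutation tests were exact and two-sided on the difference of means, run for the 7 genes in each comparison. Python 3.11.15 with numpy 2.4.6, pandas 2.3.3, scipy 1.17.1 and matplotlib 3.10.9 did the rest. The procedure was tested on simulated data drawn independently for each gene and sample. Such data hold no close libraries, so that test cannot show how close libraries affect the calls. The genes and lists were chosen with earlier results of these data known. Named genes were the 7, pathway genes past the threshold in a main comparison, Gad1, Gad2, Slc32a1, Gphn, Gabbr1, Gabbr2, the line genes, the most and least abundant markers where described, and the 3 genes most like each subunit; Gabrg1, Xist, Slc1a2 and Slc6a11 were named after their values were seen. Positions and start-site windows came from RefSeq (GRCm38.p6), which held 22499 of the table's symbols.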

Additional observations from a re-analysis of the deposited data

Results flagged for a closer look

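In groups of 4 to 10 samples, the highest or lowest sample of each subunit was compared with the rest by Dixon's ratio (its gap to the next sample over the whole range, on log2(FPKM + 1)). Chance passes about 1 in 20 of such groups, and 3 of 21 passed here. SST-F was far below the other females in Gabra2 (10.7 FPKM, ratio 0.624) and far above them in Gabrd (0.95 FPKM, ratio 0.674). The mean of SST0-M with SST1-M was far above the other male Sst controls in Gabra3 (3.78 FPKM, ratio 0.820).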

How the results depend on the processing

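The depth of each library is unknown, so counting error could not be separated from the spread between samples. In the sex comparison, 493 genes and 1 subunit were called. The counts were 2549 and 2 with each library as its own sample, 1699 and 3 against all males, 6032 and 3 against dated males, 3166 and 2 without SST-F and the averaged male pair, 16 and 0 with close female libraries averaged. With the pan-neuronal or microglia mean as a covariate 1087 and 980 genes were called. Leaving out 1 sample gave 100 to 1787 genes (lowest without SST3-M, highest without SST-F) and 0 to 2 subunits (Gabra2 and Gabra4 without SST-F). Title numbers did not pair the samples (r of deviations -0.016, -0.040 and -0.015 for sex; 0.199, 0.167 and 0.065 for line). A block on the number gave 11 genes and 0 subunits for sex, and 9 genes and 0 subunits for line; 2 of 3 numbered Sst males matched their own number best in the line comparison.

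In the line comparison, 1133 genes and 0 subunits were called. The counts were 33 and 0 with the pan-neuronal mean as a covariate, 1 and 0 with the microglia mean, 2719 and 3 (Gabra2, Gabrb1 and Gabrd) with the astrocyte mean, 491 and 0 with male and 3638 and 3 with female Sst samples only, 14 and 0 without the high-Xist samples, 4024 and 4 without SST-F, SS04031R and the averaged pairs, and 292 and 0 with close female libraries averaged. Leaving out 1 sample gave 389 to 2130 genes (lowest without PV5-M, highest without the averaged PV0-M and PV2-M) and 0 to 1 subunits (Gabrb1, without SS04031R). In the CUS comparison, where 1 gene was called, 3 were without a filter or with each library as its own sample, 2309 against numbered controls, 6 against controls of both sexes, and 1 to 3 with a sample left out, with 0 subunits each time. Between title kinds, 585 genes became 381 without a filter, 1110 after quantile normalization, 1769 with each library as its own sample and 54 (without SST040241L) to 1962 (without the mean of SST0-M with SST1-M) with a sample left out, again with 0 subunits.

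Directions changed only for subunits not called in the main comparisons. For sex, Gabra3 became 0.29 against dated males and 0.0045 without SST-F and the averaged pair, and was -0.67 to 0.19 with a sample left out. For line, Gabra2 became -0.063 with male Sst samples and -0.18 with the block; Gabra3 0.26 and Gabra5 0.065 with the pan-neuronal mean; Gabra3 0.20, Gabra5 0.43, Gabrb1 -0.57 and Gabrd 0.26 with the microglia mean; and Gabra5 0.068 with female Sst samples. Gabrb2 became -0.062 after quantile normalization, -0.21 with the astrocyte mean, -0.21 with male Sst samples, -0.052 without the high-Xist samples, -0.066 without the libraries that stood apart and -0.15 with the block, and was -0.029 to 0.17 with a sample left out. For CUS, Gabra2 became -0.27 with the microglia mean, -0.43 with the astrocyte mean and -0.41 with controls of both sexes; Gabra3 0.039 with a pseudocount of 0.1, 0.26 with dated controls or title kind as a covariate, and -0.21 to 0.22 with a sample left out; Gabra4 -0.028 after quantile normalization, -0.24 with controls of both sexes and -8.0e-05 to 0.32 with a sample left out; and Gabrb1 -0.40 with the microglia and -0.996 with the astrocyte mean. Between title kinds, Gabra2 became 0.022 after median scaling and 0.082 with each library as its own sample (-0.43 to 0.32 with a sample left out), and Gabra4 -0.11 after quantile normalization (-0.27 to 0.33). The cause of these changes was not tested. The astrocyte covariate, the fits without libraries that stood apart and the averaging of close libraries were chosen after the data were seen. The astrocyte mean holds Slc1a2, listed at 0 in every Sst control, and the microglia mean holds 1 marker listed at 0 in every male Sst sample. Both covariates therefore partly follow the groups compared.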

Other observations

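The level of 1 further gene of the pathway list, chosen after its values were seen, is given by group. Slc6a11, the GABA transporter GAT-3 of astrocytes, was at 76.9 to 174 FPKM in female Sst samples, 65.8 to 93.1 in numbered males, 26.3 to 66.8 in dated males, 50.5 to 63.2 after CUS and 97.0 to 160 in samples labelled Pvalb male. Of the latter, the 3 with high Xist had 154, 157 and 160 FPKM and the others 97.0, 99.4 and 151. The 10 astrocyte markers summed to 871 to 1588 FPKM in females, 828.6 to 2084 in numbered males, 609 to 1521 in dated males, 2056 to 2371 after CUS and 1683 to 2461 in Pvalb samples, and their part in these levels was not tested. Of these 10, Slc1a2 was listed at 0 in every Sst control. The log2 fold change of Slc6a11 in females was 0.82 against the numbered males (adjusted p = 0.0800) and 1.16 against all Sst males (adjusted p = 0.0198). Male Sst samples were lower than Pvalb samples (-1.13, adjusted p = 0.0460).

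Gabra2 relative to Gabrb1 in the same library ranged from 0.144 to 0.616 over the 24 libraries, with a median of 0.336.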
